A study of Mus musculus with 10 samples.

Results

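Genes of class I antigen presentation were described across 5 preparations of mouse bone marrow mesenchymal stromal cells, named MSC I to MSC V. The list held 10 genes: the regulator Nlrc5, the class I heavy chains H2-Q4 and H2-T23, the light chain B2m, the peptide transporter subunits Tap1 and Tap2, tapasin (Tapbp), and the immunoproteasome subunits Psmb8, Psmb9 and Psmb10. A gene was taken where the array annotation gave a probe set its symbol and no other, and where a gene had several such probe sets the one with the highest mean over the 10 arrays stood for it. This found 9 of the 10 genes, among 19938 genes that could be named in the same way. H2-T23 was left out, since its probe set also carries the symbol H2-T-ps. Of the 9, only Nlrc5 had more than 1 such probe set.

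Mesenchymal stromal cells are marrow cells that adhere to plastic, resemble fibroblasts and can form bone and fat. All 5 preparations came from bone marrow of female C57BL/6J mice that were 6 to 8 weeks of age. They were at passage 16 to 17 and were grown in MesenCult medium with a mesenchymal supplement and antibiotics, and the labels name no genotype, treatment or control group. Total RNA was labelled with biotin and hybridised to 10 single-colour Affymetrix arrays, 2 for each preparation, and the deposited values are log2 levels. Each name stands for a single preparation, so what belongs to the mice, the culture or its handling cannot be told apart. The labels do not say whether the 2 arrays of a preparation came from separate cultures, and the p-values therefore measure the spread between arrays, which may be technical. In bulk RNA of this kind, fewer cells of a type and less RNA per cell cannot be told apart. The median level per array lay between 6.45 and 6.63 log2, and over all probe sets arrays of the same preparation correlated at r = 0.990 to 0.993 against 0.939 to 0.986 between preparations.

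Class I molecules show peptides from inside the cell to CD8 T cells on the surface of nearly every nucleated cell. The proteasome cuts proteins into peptides, the transporter formed by Tap1 and Tap2 carries them into the endoplasmic reticulum, and tapasin holds the transporter next to an empty heavy chain and B2m until a peptide binds. Interferons raise most of these genes, partly through Nlrc5, which is brought to class I promoters by factors bound to a shared set of promoter elements, and they replace the 3 constitutive catalytic subunits of the proteasome with Psmb8, Psmb9 and Psmb10. In stromal cells of the marrow these genes bear on how the cells are seen by T and natural killer cells.

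4 of the 9 genes lie side by side on chromosome 17, in the order Psmb9, Tap1, Psmb8 and Tap2, with the class II genes H2-DMb1 and H2-Ob on either side. H2-Q4 and Tapbp lie elsewhere on chromosome 17, B2m on chromosome 2, and Nlrc5 and Psmb10 on chromosome 8. RefSeq promoter windows of build GRCm38.p6 were at hand for 7 of the 9 genes, all but Tap2 and Nlrc5, and the 250 bases before each start were searched on both strands for 3 short motifs. The sequences below are the windows in which a motif was found, shown because these genes were highest together in MSC I. Tap1 and Psmb9 are read in opposite directions from starts with 225 bases between them, and that stretch is given once, on the Tap1 strand. Capitals mark the motif matches, and every sequence runs 5′ to 3′ on the plus strand and ends just before the start of the gene, for the first line that of Tap1.
Tap1 and Psmb9, chr17:34187331-34187555: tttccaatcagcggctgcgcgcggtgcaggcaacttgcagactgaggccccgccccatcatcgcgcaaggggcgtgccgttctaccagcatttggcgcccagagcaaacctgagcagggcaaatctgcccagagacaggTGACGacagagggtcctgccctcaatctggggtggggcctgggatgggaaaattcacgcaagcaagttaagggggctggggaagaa
Psmb8, chr17:34197945-34198194: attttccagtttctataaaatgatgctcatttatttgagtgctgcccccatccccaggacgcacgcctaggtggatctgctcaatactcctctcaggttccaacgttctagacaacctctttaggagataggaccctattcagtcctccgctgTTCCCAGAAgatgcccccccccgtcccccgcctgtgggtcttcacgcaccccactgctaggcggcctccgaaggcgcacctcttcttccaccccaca
H2-Q4, chr17:35379367-35379616: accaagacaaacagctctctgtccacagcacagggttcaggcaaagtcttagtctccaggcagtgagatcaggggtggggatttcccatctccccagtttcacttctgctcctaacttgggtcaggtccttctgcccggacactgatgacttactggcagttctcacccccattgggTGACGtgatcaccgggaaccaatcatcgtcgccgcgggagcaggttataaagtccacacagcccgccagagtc
B2m, chr2:122147437-122147686: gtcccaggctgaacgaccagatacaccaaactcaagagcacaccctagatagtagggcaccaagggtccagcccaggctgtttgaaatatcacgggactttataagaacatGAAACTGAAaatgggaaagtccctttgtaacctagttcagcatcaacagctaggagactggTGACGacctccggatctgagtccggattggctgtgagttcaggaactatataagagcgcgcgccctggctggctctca

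The capitals in the Tap1, H2-Q4 and B2m lines include TGACG, the core of the cyclic AMP response element, which is part of the shared class I promoter module. It was found in 4 of the 7 windows, against 17.8% of 32851 windows of the same length, and the match is the same 5 bases for Tap1, where it begins 86 bases before the start, and for Psmb9. In B2m it begins 78 and in H2-Q4 73 bases before the start. The interferon-stimulated response element core GAAANNGAA was found in 1 of the 7, B2m, 139 to 131 bases before the start, and in 7.13% of all windows. The interferon gamma activated site TTCNNNGAA, which reads the same on both strands, was found in 1 of the 7, Psmb8, 97 to 89 bases before the start, and in 7.02% of all windows. No overlap between the motifs occurred in these lines. A match is a description of the letters only, and the windows do not include sequence after the start. Only the exact letters named here were searched, on both strands, and other forms of these elements were not looked for. A window without a match, such as that of H2-Q4 for the interferon-stimulated response element, may therefore still hold such an element in its unmarked letters.

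The members were highest in MSC I. The class I heavy chain gene H2-Q4 was higher there by 5.45 log2, the transporter gene Tap1 by 3.21 and the immunoproteasome gene Psmb8 by 2.71, each against the unweighted mean of MSC II to V. A gene was called where limma's moderated test gave a Benjamini-Hochberg adjusted p under 0.05 and the difference was at least 1 log2, a fold of 2. By this rule 6 of 9 members were higher in MSC I, where 4.15% of all 19938 genes were called, and 0 were lower, where 2.67% were called. At an unadjusted p under 0.05, a looser rule to which these shares of all genes do not apply, 9 members were higher and 0 lower. When only genes with 2 arrays above the median of the table, 6.55 log2, were tested, 6 of 9 members and 7.73% of genes were called higher. That count is a description only, since H2-Q4 and Psmb9 had 0 and Psmb8 had 1 array outside MSC I above that median, so these 3 passed the filter only through MSC I. The median difference of the members was 1.17 log2 against -0.0203 over all genes. All 9 had their highest mean in MSC I, and for 8, all but Tapbp, both MSC I arrays lay above the other 8 arrays, an order found in 10.8% of all genes. Over all 5 preparations 8 members differed in limma's moderated F test with a range of at least 1 log2, all but B2m, against 14.6% of all genes. Of these calls that of Tapbp was lost without MSC IV replicate 2 (adjusted p = 0.0573).

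**Figure D1:**
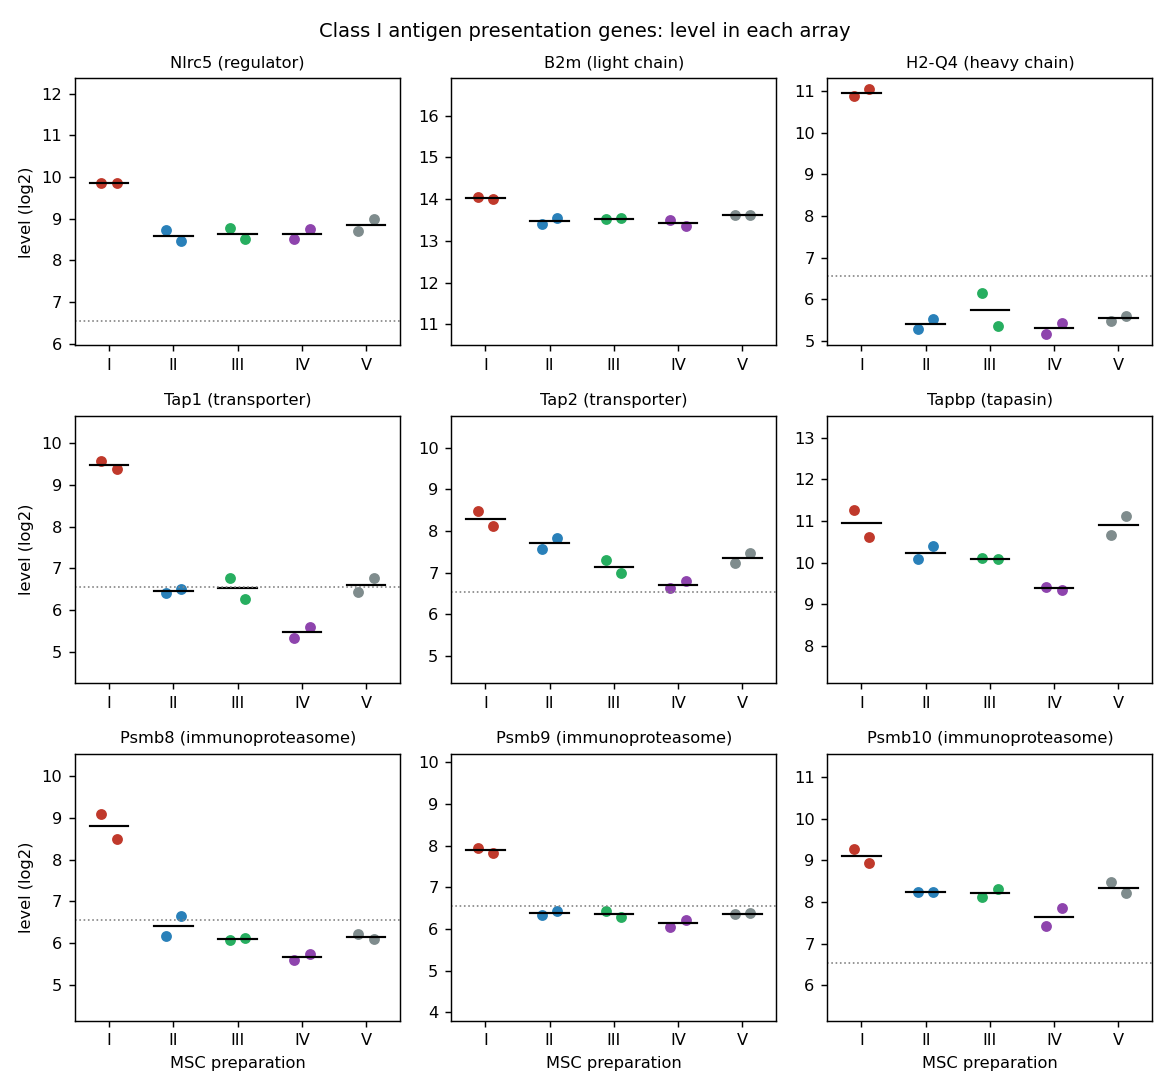
Level of the 9 genes in each array, in log2, by preparation (I to V), with points for arrays and a bar for the mean of the 2 arrays; panels span the same number of log2 units, and the dotted line, where it falls in the panel, is the median of the deposited table at 6.55. MSC I holds the highest mean in every panel, and for Tapbp the arrays of MSC V lie between those of MSC I.

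Nlrc5, the NOD-like receptor family protein that acts as coactivator of class I genes, had levels of 9.86 and 9.85 log2 in the 2 arrays of MSC I. It measured 8.72 and 8.47 in MSC II, 8.78 and 8.51 in MSC III, 8.52 and 8.75 in MSC IV, and 8.70 and 8.995 in MSC V. The MSC I arrays stood above all others, and the other 4 preparations overlapped. The difference of MSC I was 1.17 ± 0.12 log2 (SE), a fold of 2.26, with an adjusted p of 0.000809 in limma's test. Among MSC II to V the means of the probe set used spanned 0.25 log2, with an adjusted p of 0.586 in limma's F test.

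The 19 probe sets of Nlrc5 gave differences of unequal size. Tested each on its own, 18 of 19 were called higher in MSC I, where 4.11% of all 21789 probe sets with 1 symbol were called, and the highest adjusted p of the 19 was 0.000794. These probe sets read the same gene on the same arrays and are not independent of each other, so the count describes a single gene. The differences ran from 0.78 to 4.30 log2 with a median of 2.60, and in all 19 both MSC I arrays lay above the other 8. The probe set with the highest mean, which stands for the gene here, was among those with smaller differences. The largest difference, 4.30 ± 0.16 log2, belonged to a probe set with a mean of 10.37 in MSC I and 5.41, 6.46, 5.80 and 6.62 in MSC II, III, IV and V. It was the only 1 of the 19 called among MSC II to V (range 1.21, adjusted p = 0.0223 in limma's F test). With 1 probe set for each gene, 7.31% of all genes were called there. The probe sets with differences of 4.12 and 4.15 passed that adjusted p (0.0425 and 0.0419) with ranges of 0.89 and 0.65, under the minimum. Mean levels of the 19 lay between 5.18 and 8.92, and 7 were above the median of the table, 6.55 log2. The size of the Nlrc5 difference thus depended on the probe set, while its direction was the same in all 19.

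**Figure D2:**
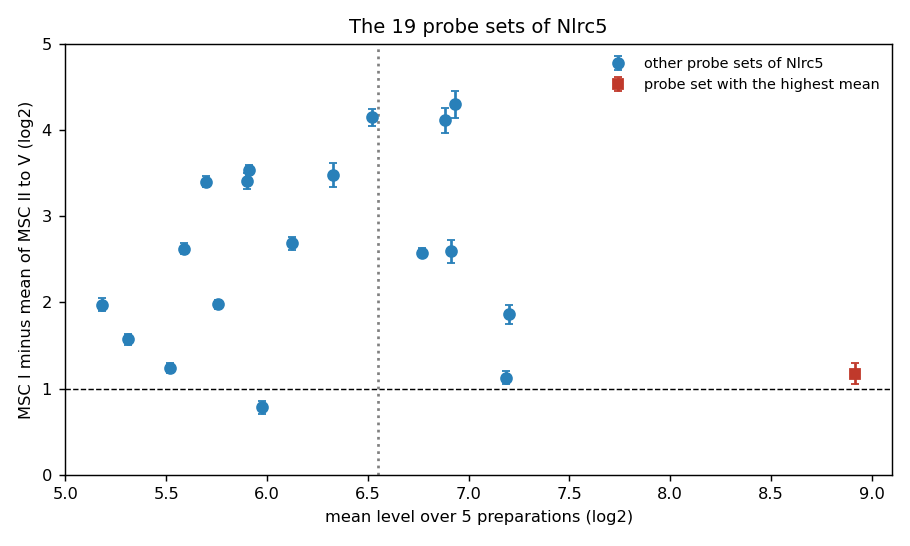
Each point is a probe set of Nlrc5, with its mean level over the 5 preparations (log2) on the horizontal axis and its difference, MSC I minus the mean of MSC II to V (log2), on the vertical axis; bars are standard errors, the dotted line is the median of the table at 6.55 and the dashed line is a difference of 1. Differences lie between 0.78 and 4.30, and the probe set with the highest mean, the red square, is at 1.17.

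H2-Q4, a class I heavy chain gene of the Q region, had levels of 10.87 and 11.03 log2 in MSC I. It measured 5.30 and 5.53 in MSC II, 6.15 and 5.36 in MSC III, 5.16 and 5.44 in MSC IV, and 5.48 and 5.60 in MSC V. The 8 arrays outside MSC I all lay under the median of the table, where RMA compresses differences and a low level does not show that a transcript was absent. The difference was 5.45 ± 0.20 log2, a fold of 43.7 (95% interval of the log2 difference 4.98 to 5.91), with an adjusted p of 7.92e-06. Among MSC II to V the means spanned 0.45 log2 (adjusted p = 0.548). Mouse class I heavy chain genes are near-identical in sequence, and the signal of this probe set cannot be assigned to H2-Q4 alone with certainty.

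B2m, the light chain that pairs with every classical pairs with every classical heavy chain, had the smallest difference of the 9. Its levels were 14.04 and 14.01 log2 in MSC I and between 13.35 and 13.62 in the other 8 arrays. The arrays of MSC I lay above the other 8. The difference was 0.52 ± 0.0608 log2, a fold of 1.43, with an adjusted p of 0.0015, and it lay under the minimum of 1 log2. These levels lie near the top of the table, whose highest value was 14.59.

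Tap1 and Tap2, the subunits of the peptide transporter, differed in size of change. Tap1 had levels of 9.57 and 9.38 log2 in MSC I. It measured 6.42 and 6.51 in MSC II, 6.77 and 6.27 in MSC III, 5.33 and 5.60 in MSC IV, and 6.44 and 6.77 in MSC V. Both arrays of MSC I were above and both arrays of MSC IV below all others. Its difference in MSC I was 3.21 ± 0.15 log2, a fold of 9.27 (adjusted p = 2.77e-05). In the order of the means, MSC I, V, III, II and IV, the neighbours I and V differed by 2.87 (adjusted p = 0.000221) and II and IV by 1.00 (adjusted p = 0.0232), while V, III and II did not differ beyond their spread.

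Tap2 had levels of 8.47 and 8.11 log2 in MSC I. It measured 7.58 and 7.83 in MSC II, 7.30 and 6.99 in MSC III, 6.63 and 6.79 in MSC IV, and 7.23 and 7.48 in MSC V. The preparations formed a graded series, with MSC I above and MSC IV below the rest. The difference in MSC I was 1.06 ± 0.14 log2, a fold of 2.09 (adjusted p = 0.00216), close to the minimum of 1. Without MSC I replicate 1 it was 0.88 (adjusted p = 0.024) and no longer called. No neighbours in the order I, II, V, III and IV were called, with the nearest pair to the threshold, I and II, at 0.59 log2 (adjusted p = 0.0551).

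Tapbp, which bridges the transporter and the empty class I molecule, followed another order. Its levels were 11.28 and 10.61 log2 in MSC I and 10.67 and 11.12 in MSC V, which overlapped. It measured 10.09 and 10.40 in MSC II, 10.12 and 10.08 in MSC III, and 9.42 and 9.35 in MSC IV. MSC I and MSC V thus shared the upper end and MSC IV held the lower end. The difference of MSC I from the mean of the rest was 0.79 ± 0.19 log2 (adjusted p = 0.0241), under the minimum of 1, and from MSC V it was 0.0473 ± 0.24 (adjusted p = 0.942). Without MSC I replicate 1 the difference from the rest was 0.45 (adjusted p = 0.184), and without MSC I replicate 2 it was 1.12 (adjusted p = 0.0135) and called.

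The immunoproteasome genes were next compared. Psmb8, also known as LMP7, had levels of 9.08 and 8.50 log2 in MSC I. It measured 6.16 and 6.65 in MSC II, 6.08 and 6.12 in MSC III, 5.58 and 5.74 in MSC IV, and 6.205 and 6.10 in MSC V. The MSC I arrays lay above the other 8, which ran from 5.58 to 6.65, with both MSC IV arrays at the lower end. The difference was 2.71 ± 0.17 log2, a fold of 6.56 (adjusted p = 0.000106).

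Psmb9, also known as LMP2, had levels of 7.94 and 7.83 log2 in MSC I and between 6.06 and 6.43 in the other 8 arrays. All 8 were under the median of the table. The difference was 1.58 ± 0.0681 log2, a fold of 2.98 (adjusted p = 1.7e-05), with the smallest standard error among the 6 called members. Psmb10, also known as MECL-1, had levels of 9.27 and 8.93 log2 in MSC I. It measured 8.24 and 8.25 in MSC II, 8.13 and 8.32 in MSC III, 7.43 and 7.85 in MSC IV, and 8.49 and 8.21 in MSC V. The MSC I arrays were above all others, and those of MSC IV below. The difference was 0.99 ± 0.14 log2 (adjusted p = 0.00333), just under the minimum of 1. Leaving out 1 array brought it to a call 4 times, at 1.16 when this was MSC I replicate 2, 1.01 for MSC III replicate 2, 1.04 for MSC IV replicate 2 and 1.02 for MSC V replicate 1.

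**Figure D3:**
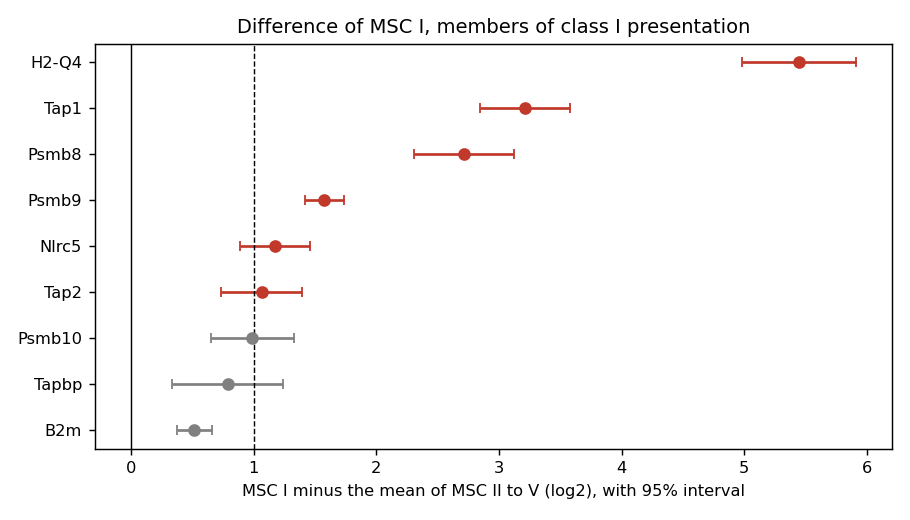
Difference of each gene in log2, MSC I minus the mean of MSC II to V, with 95% intervals; red marks genes called at an adjusted p under 0.05 and at least 1 log2 (dashed line), grey those not called. The values run from 5.45 for H2-Q4 to 0.52 for B2m, and every interval lies above 0.

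The subunits that Psmb8, Psmb9 and Psmb10 replace in the proteasome were not called higher in MSC I. Psmb5 differed in MSC I by -0.15 ± 0.0718 log2 (adjusted p = 0.18) and Psmb7 by 0.18 ± 0.0702 (adjusted p = 0.117). Psmb6 differed by -0.77 ± 0.0651 log2 (adjusted p = 0.00038), under the minimum for a call. The log2 ratio of each inducible subunit to the one it replaces was larger in MSC I than in the mean of MSC II to V. The ratio differed by 2.87 for Psmb8 over Psmb5, by 2.35 for Psmb9 over Psmb6 and by 0.81 for Psmb10 over Psmb7, values given with no test. In MSC IV the same ratios lay at -0.54, -0.13 and -0.67 relative to the mean of MSC II to V. Of the 11 other subunits of the 20S core, 0 were called by limma in either direction (1 higher and 5 lower at an unadjusted p under 0.05), with a median of -0.22. Over all genes 4.15% were called higher and 2.67% lower.

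**Figure D4:**
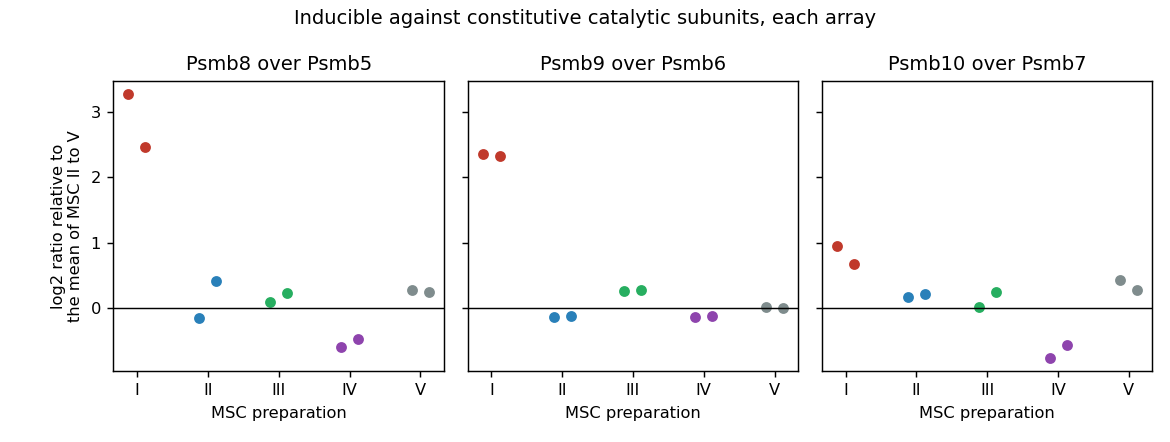
Log2 ratio of each inducible catalytic subunit to the constitutive subunit it replaces, in each array, relative to the mean of MSC II to V (line at 0), by preparation (I to V). The means of MSC I are 2.87, 2.35 and 0.81 from left to right, and the means of MSC IV are -0.54, -0.13 and -0.67.

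Pairs of preparations were then compared. The pairs share arrays and are not independent of each other. Against MSC II, 5 of 9 members were called, all higher in MSC I, with 7.75% of all genes called in either direction. Against MSC III the count was 6 (5.75% of all genes), against MSC IV 8 (10.8%) and against MSC V 5 (5.48%), each of them higher in MSC I. H2-Q4, Tap1, Psmb8, Psmb9 and Nlrc5 were called in all 4 of these pairs. MSC I and MSC V differed by 5.41 ± 0.25 log2 in H2-Q4 (adjusted p = 3.58e-05) and by 2.87 ± 0.19 in Tap1. In the same pair Psmb8 differed by 2.64 ± 0.22, Psmb9 by 1.52 ± 0.0861 and Nlrc5 by 1.01 ± 0.15 (adjusted p = 0.00642). That last call was lost with arrays centred on their medians (0.92), with a further quantile normalisation (0.95) and without MSC V replicate 1 (0.86). Tap2 (0.94, adjusted p = 0.0148), Psmb10 (0.75, adjusted p = 0.0356) and B2m (0.40, adjusted p = 0.0158) lay under the minimum of 1 log2 in this pair. Tap2 passed it there without MSC I replicate 2 (1.12) or MSC V replicate 2 (1.07), and its call between MSC I and MSC III (1.15) was lost without MSC I replicate 1 (0.97) or MSC III replicate 2 (0.99). Without MSC I replicate 2, Tapbp (1.03 and 1.18) and Psmb10 (1.03 and 1.05) were called against MSC II and MSC III as well.

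Among MSC II to V, the members were mostly lowest in MSC IV. It had the lowest mean of these 4 preparations for 8 of 9 members, all but Nlrc5, and 23.3% of all genes had their lowest mean of the 4 there. For 6 members, Tap1, Tap2, Tapbp, Psmb8, Psmb9 and Psmb10, both MSC IV arrays lay below the other 8, an order found in 7.46% of all genes. The median range among the means of MSC II to V was 0.70 log2 for the members and 0.31 over all genes. In limma's F test 2 of 9 members differed among the 4, Tap1 (range 1.14, adjusted p = 0.0225) and Tapbp (range 1.51, adjusted p = 0.0282), where 7.31% of all genes were called. Tap2 passed the adjusted p (0.0371) with a range of 0.99, under the minimum.

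Both calls rested on few arrays. For Tap1 the adjusted p passed 0.05 when MSC II replicate 2 (0.0512), MSC IV replicate 1 (0.114) or its replicate 2 (0.0714) was left out. For Tapbp it passed 0.05 when either array of MSC III (0.062 and 0.0635) or of MSC IV (0.087 and 0.109), or replicate 2 of MSC II (0.0507) or of MSC V (0.0733), was left out. With the replicate number as a block, neither was called, at adjusted p = 0.0607 for Tap1 and 0.0708 for Tapbp.

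In pairs among these 4 preparations, limma called Tap1 higher in MSC II than in MSC IV (1.00 ± 0.19, with 4.39% of all genes called) and higher in MSC III than in MSC IV (1.06 ± 0.19, adjusted p = 0.0234, with 3.59% called). MSC V exceeded MSC IV in Tap1 by 1.14 ± 0.19 (adjusted p = 0.0135) and in Tapbp by 1.51 ± 0.24 (adjusted p = 0.0109), where 5.26% of all genes were called. The Tap1 calls of the pairs with MSC IV were each lost without MSC IV replicate 1, at adjusted p = 0.0982 against MSC II, 0.0925 against MSC III and 0.0642 against MSC V. Against MSC II it was also lost without either array of MSC II (0.0657 and 0.121) or MSC IV replicate 2 (0.0693), against MSC III without MSC III replicate 1 (0.0859) or MSC IV replicate 2 (0.0732), and against MSC V without MSC V replicate 2 (0.0551). With the replicate block it was lost against MSC II (0.0565) and MSC III (0.0594). With only the 4 arrays of a pair, limma called 1 member between MSC II and IV, 0 between MSC III and IV (5 at an unadjusted p under 0.05), and 1 between MSC IV and V. In the same order, these fits called 446, 626 and 603 of all 19938 genes. Tap2 differed between MSC II and MSC IV by 0.99 (adjusted p = 0.0165) and passed the minimum without MSC II replicate 1 (1.12), with centring (1.004) and with a further quantile normalisation (1.01). The Tapbp call was lost without MSC IV replicate 2 (0.0637). Between MSC II and III, II and V, and III and V, 0 members were called by limma, where 1.43%, 2.61% and 0.948% of all genes were. In each of these 3 pairs 1 member had an unadjusted p under 0.05.

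Genes that act beside the members in peptide loading were described next. Of 12 measured genes of loading and trimming, 1 was called higher in MSC I and 1 lower, with a median of 0.11, where 4.15% of all genes were called higher and 2.67% lower. Erap1, the aminopeptidase of the endoplasmic reticulum that trims peptides to class I length, was higher by 1.80 ± 0.0599 log2 (adjusted p = 5.82e-06), with means of 8.76 in MSC I and 6.59, 7.39, 6.28 and 7.60 in MSC II, III, IV and V. Its lowest mean was in MSC IV, as for 8 of the 9 members. Thop1, a cytosolic peptidase that degrades peptides, was lower, at -1.29 ± 0.13 (adjusted p = 0.000755). Tapbpl, the tapasin relative that edits peptides, differed by 0.79 ± 0.11 (adjusted p = 0.00308), under the minimum, and the chaperones Calr (0.15, adjusted p = 0.504) and Canx (-0.12, adjusted p = 0.375) did not pass the test. Of 8 genes of proteasome activation and assembly, 0 were called in limma's test (2 higher and 3 lower at an unadjusted p under 0.05). The interferon-responsive activator subunits Psme1 and Psme2 differed by 0.71 ± 0.0853 (adjusted p = 0.00162) and 0.57 ± 0.13 (adjusted p = 0.0195), and the assembly chaperones Psmg1 and Psmg2 by -0.95 and -0.89.

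Other class I heavy chain genes could be read for 7 of 17 listed, since most share their probe sets. Of these, 0 were called in limma's test, 2 were higher at an unadjusted p under 0.05, and the median was 0.0333 log2. Over all genes 4.15% were called higher and 2.67% lower. Only 1 of the 7, H2-M3, lay above the median of the table on any array. RMA compresses differences under that median, so the lack of calls does not show that the other genes were unchanged. Values of the shared probe sets are given at the end. H2-M3, which presents formylated peptides, was above the median of the table on all 10 arrays and differed by 0.0275 ± 0.0752 log2 (adjusted p = 0.852). H2-T10 differed by 0.52 ± 0.0837 (adjusted p = 0.00511) from means that lay under the median of the table. Of 6 class I-like genes, 0 were called (1 higher at an unadjusted p under 0.05), with Mr1, which presents vitamin metabolites, at 0.78 ± 0.11 (adjusted p = 0.00295). Among 10 measured genes of class II presentation, 0 were called higher and 1, Cd74, lower (-1.59 ± 0.46, adjusted p = 0.0457), a call kept in 7 of 16 alternatives. Ciita, the class II counterpart of Nlrc5, lay between 4.86 and 4.90 in every preparation. H2-Ob, the class II gene next to Tap2, lay between 4.97 and 5.05 and differed in MSC I by -0.0126 ± 0.0495 (adjusted p = 0.898). Only 2 of the 10 class II genes, Cd74 and H2-DMa, lay above the median of the table on any array. For the others, Ciita and H2-Ob included, the lack of calls does not show that they were unchanged.

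Of 17 measured transcription factors known to act on class I genes, 3 were higher in MSC I and 0 lower, with a median of 0.0661. For this list and the reference list below, the shares over all genes were 4.15% higher and 2.67% lower. Irf7 was higher by 5.44 ± 0.0959 log2, Irf9 by 2.08 ± 0.12 and Stat2 by 1.74 ± 0.13, factors that carry the type I interferon response. The other 8 arrays of Irf7 lay under the median of the table, where RMA compresses differences, so its value may understate the change. Irf1, which acts on Psmb9 and Tap1, differed by 0.93 ± 0.15 (adjusted p = 0.00513), under the minimum. Irf1 had a mean of 7.26 in MSC IV and between 8.71 and 9.34 in MSC II, III and V (adjusted p = 0.00296 among the 4). The factors of the shared promoter module were not called, with Rfx5 at 0.24 (adjusted p = 0.288), Creb1 at 0.23 (adjusted p = 0.263) and Nfya at 0.14 (adjusted p = 0.285), and Rfxap lay at -0.81 (adjusted p = 0.00489), under the minimum. Of 15 interferon-induced genes outside the pathway that served as a reference, 12 were higher and 0 lower in MSC I (14 and 0 at an unadjusted p under 0.05), with a median of 3.15 log2.

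Of 15 genes of interferon ligands, receptors and signalling, 3 were higher and 1 lower in MSC I, with a median of -0.0123. The shares called over all genes were 4.15% higher and 2.67% lower. Usp18, which limits type I interferon signalling, was higher by 6.64 ± 0.11, also against 8 arrays under the median of the table. The receptor gene Ifngr1 was higher by 1.17 ± 0.14, a call lost without MSC I replicate 1 (0.95), and Socs3, a feedback inhibitor, by 1.44 ± 0.22, a call lost with the mean of its probe sets (0.81). Jak2 was lower, at -1.18 ± 0.21 (adjusted p = 0.00765), a call that did not hold when either array of MSC I was left out (adjusted p = 0.0523 and 0.0572). The ligand genes Ifng, Ifnb1 and Ifna4 lay between 4.93 and 5.62 in every preparation, under the median of the table on all 10 arrays. The ligand gene Ifnl2 lay between 7.01 and 7.33, above that median on all 10 arrays, and differed in MSC I by -0.13 ± 0.088 (adjusted p = 0.361).

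**Figure D5:**
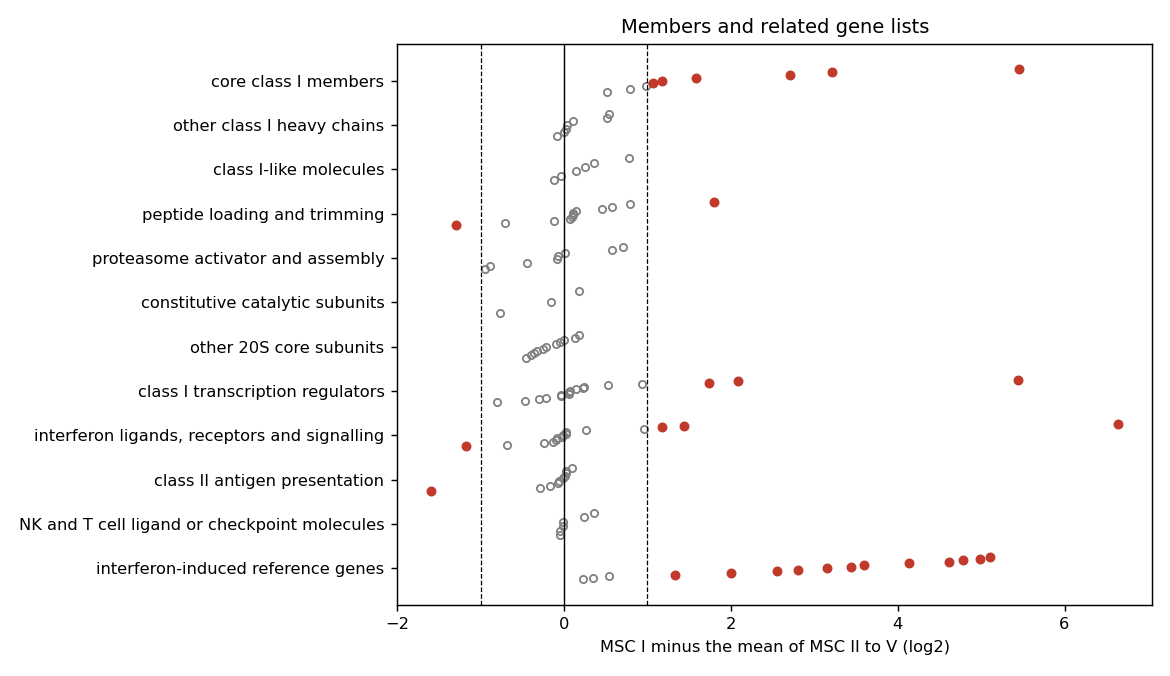
Difference of each measured gene in log2, MSC I minus the mean of MSC II to V, by gene list; filled red points are called at an adjusted p under 0.05 and at least 1 log2 (dashed lines), open grey points are not. 6 of 9 members and 12 of 15 interferon-induced reference genes are called higher, against 0 of 11 other 20S subunits. The share called higher over all genes is 4.15%.

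The genes whose pattern was most like that of the members were ranked by Pearson's r over the 10 arrays with the mean of the members, each centred on its own mean. This mean was 1.67 and 1.44 log2 in the arrays of MSC I and -0.86 and -0.70 in those of MSC IV, with the other 6 arrays between -0.43 and -0.12. Among 3891 genes with a range of preparation means of at least 1 log2, the 10 nearest were Stat2 (r = 0.991), Dhx58 (0.988), Ifih1 (0.986), Arhgap26, Irf9, Zfp612, Oasl2, Fgfrl1, Parp12 and Tnfrsf14 (0.985 each). The points share their arrays, and MSC I sets most of the range.

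The label of the cells was checked against markers. Of 9 measured stromal markers 2 were higher in MSC I, Pdgfra (3.06 ± 0.50) and Vcam1 (1.75 ± 0.26), and 2 lower, Nt5e (-2.35 ± 0.31) and Col1a2 (-1.499 ± 0.16). Over all genes 4.15% were called higher and 2.67% lower. Endoglin, Eng, lay between 5.58 and 5.78 in MSC I, II, III and V, under the median of the table, and at 9.60 in MSC IV, while Thy1 lay between 5.58 and 7.19. The mean of the stromal markers lay between 8.98 and 9.55 in all arrays, but it joins unlike levels. In MSC I the means of Nt5e (5.92), Thy1 (5.65) and Eng (5.78) lay under the median of the table. Those of Pdgfra, Pdgfrb, Col1a1, Col1a2, Cd44 and Vcam1 lay above it there, between 9.08 and 12.20. The 4 pan-blood, 3 dendritic, 3 B cell, 6 T or NK cell and 5 endothelial markers were under the median of the table on every array, with means per array between 4.80 and 5.13, and Ptprc, which marks all leukocytes, lay between 5.14 and 5.22. In limma's test 0 of these were called in MSC I, with 1 pan-blood marker, Coro1a, lower at an unadjusted p under 0.05. Of 8 macrophage markers, 2, Cd68 and Cd14, were above that median on any array, with 0 called in MSC I (2 lower at an unadjusted p under 0.05). The mean of the 8 per array was 5.37 to 5.50 in MSC I and 5.39 to 5.99 in the others. Both of these markers differed among MSC II to V, where the members were mostly lowest in MSC IV and Tapbp was highest in MSC V. Over all genes 7.31% were called there. The other macrophage markers, Itgam, Adgre1, Csf1r, Lyz2, Tyrobp and Fcer1g, lay under that median on every array, where RMA compresses differences. None of them was called among MSC II to V, with adjusted p from 0.238 (Fcer1g) to 0.988 (Itgam) in limma's F test. Cd68 had means of 7.41, 6.73, 6.60 and 8.54 log2 in MSC II, III, IV and V (adjusted p = 0.00189), and Cd14 of 6.56, 6.19, 5.50 and 6.95 (adjusted p = 0.0296). Their part in the differences of the members was not tested.

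Adipoq, Cebpa and Pparg, which are known from fat cells, were chosen for mention after their values were seen and stand for no list. In limma's test Adipoq was higher in MSC I by 5.44 ± 0.25 log2, Cebpa by 3.49 ± 0.21 and Pparg by 1.78 ± 0.22. Their part in the differences of the class I genes was not tested.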

How the data were processed

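The table deposited by the authors held log2 values of 35399 probe sets on 10 arrays, complete and with no identical pair of arrays. RMA and Partek are named in the submitters' processing notes, and their versions were not given in the sources used here. In RMA the background is subtracted, arrays are brought to a common distribution and probe sets are summarised, and no detection calls were used. The platform annotation gave 1 symbol to 21789 probe sets, several to 1621 and none to 11989.

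Arrays were grouped by sample title. Means per preparation were fitted in R 4.3.3 with limma 3.58.1 (lmFit, eBayes) over 19938 genes, with no filter on low values, so that no member was tested only because it was high in MSC I. Two-sided p-values were adjusted by Benjamini-Hochberg over all genes, and errors after a difference are standard errors. The number of arrays limits the precision. Python 3.11.15 made tables and figures, and the scripts were tested on simulated data.

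The text names the members, genes of the lists, the 10 genes most like the members and 3 further genes chosen after their values were seen. Members and lists were chosen with earlier results of these data known. Alternatives were filters at the median and at the 75th percentile (9.22 log2), means over a gene's probe sets, median centring and quantile normalisation of arrays, trend and robust options of eBayes, a block for the replicate number, fits without each array, and fits to the 4 arrays of a pair. Testing every probe set on its own was added after seeing the data. Same-numbered arrays deviated from their preparation means with correlations of -0.53 to 0.18 between preparations. These values do not decide whether such arrays belong together, and the main fit used the numbers only to name arrays.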

Additional observations from a re-analysis of the deposited data

How the results depend on the processing

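The 9 member differences in MSC I kept their sign under every alternative that tested them, among filters, probe set rules, scalings, eBayes settings, the replicate block and each array left out. H2-Q4 ranged from 5.35 to 5.55 log2, Tap1 from 3.12 to 3.31, Psmb8 from 2.42 to 3.005, Psmb9 from 1.51 to 1.63, B2m from 0.47 to 0.53, Tap2 from 0.88 to 1.24, Psmb10 from 0.82 to 1.16 and Tapbp from 0.45 to 1.12. Nlrc5 ranged from 1.14 to 2.60, the upper end being the median over its probe sets. The Tapbp adjusted p ran from 0.0133 to 0.184. With the filter at the 75th percentile 5 members were tested. Of these, 4 differed among the 5 preparations instead of 8, and 3 instead of 6 were higher in MSC I. Among all genes that passed this filter 7.33% were called higher. Calls over pairs numbered 17 instead of 28. These counts are a description only, since H2-Q4, Tap1 and Nlrc5, the 3 called higher, passed that filter only through MSC I. With each array left out, members higher in MSC I numbered 5 to 8, those differing among the 5 preparations 7 to 8, with Tapbp lost without MSC IV replicate 2 (adjusted p = 0.0573), calls over pairs 25 to 33, and those differing among MSC II to V 0 to 2. Centring or a further quantile normalisation gave 3 members among MSC II to V, Tap2 being added. With the replicate block that count was 0 in limma's test, with 4 at an unadjusted p under 0.05, and the block left 6 members higher in MSC I. The labels do not say whether arrays with the same number belong together. With only the 4 arrays of each pair 26 calls were made. Comparing protein sequences of the members was not run.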

Other observations

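Probe sets that carry several symbols were not tested and are given as values only. The probe set of H2-T23 and H2-T-ps had levels of 9.03 and 8.77 log2 in MSC I, 7.46 and 7.34 in MSC II, 7.64 and 7.31 in MSC III, 6.87 and 7.20 in MSC IV, and 7.71 and 8.09 in MSC V, which put MSC I higher than the mean of the rest by 1.45. MSC I held the highest and MSC IV the lowest mean, as for 8 of the 9 genes tested, all but Nlrc5.

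The probe set of H2-Q6 and H2-Q8, which neighbour H2-Q4, had a mean of 10.17 log2 in MSC I and between 5.76 and 5.98 in the other preparations, a difference of 4.34. The 2 probe sets shared by H2-K1, H2-D1 and LOC547349, the first 2 of which are the classical class I genes, differed by 2.06 and 2.14. Their lowest means were in MSC II, at 9.18 and 9.57, not in MSC IV. The probe set of H2-T9, H2-T22 and H2-T10 differed by 1.09, that of H2-Q1 and H2-Bl by 0.26, and that of H2-T3 and H2-T18 by -0.0482. A pair of probe sets that carry Rps3a1, a ribosomal protein gene, together with Tapbp differed by -0.50 each, in the opposite direction to the Tapbp probe set above.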
